A study of Mus musculus with 2 samples.

Results

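The genes described here serve cholesterol synthesis, uptake, sterol sensing and export in liver. They were taken by symbol from a list of 31 genes, and all 31 were among the 22609 gene symbols counted in 2 mouse liver libraries. Of the 31, 29 were measured, that is, had at least 50 reads summed over both libraries, as had 11411 of all symbols. Hmgcs1 and Idi1 were not measured. The list was made without measured values as a criterion, but it was drawn up with earlier results of these data known.

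Both libraries were made from liver of male C57BL/6 mice. All had been fed for 16 weeks, beginning at an age of 8 weeks, with a high-fat diet (45% of its calories as fat). 1 library (wild type) came from C57BL/6J mice and 1 from mice labelled as whole-body knockouts of Lrg1, which encodes a secreted glycoprotein of liver and fat. The comparison addressed how loss of Lrg1 relates to liver gene expression on this diet. The number of mice behind each library is not stated in the labels. With 1 library per group there was no replicate check and no test, so every difference is one between these libraries and not between genotypes.

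Liver cells build cholesterol from acetyl-CoA through mevalonate, the isoprenoid farnesyl diphosphate and squalene, and then trim the first sterol, lanosterol, to cholesterol. The transcription factor SREBP-2 drives nearly every enzyme gene of this route when sterols are scarce. Its escort SCAP carries it out of the endoplasmic reticulum, and INSIG proteins hold SCAP back when sterols are plentiful. Excess cholesterol leaves the liver in bile or is stored as ester.

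Reads assigned to genes numbered 23311906 for wild type and 18738397 for the library labelled Lrg1 knockout. Levels are given in CPM, reads per 1000000 of a library total adjusted by TMM (trimmed mean of M-values), on which scale 1 read was worth 0.0441 and 0.0519 CPM. Intervals are exact 95% intervals, which cover counting error only, and lacking molecular identifiers the reads are not independent molecules. Lrg1 had 26958 and 17572 reads, so the library labelled knockout held its transcript at a ratio of 0.766 to wild type. The counts do not show which part of the gene these reads came from, so the label could not be checked further, and every direction below is drawn from that library as labelled. Of 10 hepatocyte markers, 9 were lower in it, against 51.7% of all measured genes, with a median log2 ratio of -0.34. Their summed levels were 101633 and 84860 CPM, of which Alb alone held 79170 and 64406 CPM. Ttr (ratio 0.980) and Fgb (0.984) were close to equal, and Tat was higher (1.58). Sinusoidal endothelial markers summed to 166 and 256 CPM (5 of 6 higher) and Kupffer cell markers to 372 and 304 CPM (5 of 6 lower). Among the Kupffer cell markers, Marco had 49.7 and 12.1 CPM, while Clec4f was higher, at 109 and 121 CPM. Stellate cell markers summed to 275 and 267 CPM (3 of 5 higher) and cholangiocyte markers to 42.7 and 41.1 CPM (2 of 5 higher). Most of these sums lay in Dcn (216 and 220 CPM) and Spp1 (33.9 and 32.6 CPM). The stellate cell markers that were lower were Col1a1 (ratio 0.477) and Col1a2 (0.794). Krt19, Krt7 and Epcam had only 49, 31 and 31 summed reads, under the minimum of 50. Of 5 adipocyte markers, Plin1, Lep and Retn had 0 reads in both libraries and Adipoq had 1 and 4, while Cfd had 711 and 104. The part of these markers in the results was not tested, and in bulk tissue fewer cells of a type and less RNA per cell cannot be told apart.

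Promoter sequences show what the members share outside their transcript levels. The RefSeq promoter table (GRCm38.p6) held 25 of the 31 genes, and Fdps, Fdft1, Sqle, Npc1, Stard4 and Soat2 had no entry. In the 250 bases before each start, on both strands, the letters CCAAT, bound by NF-Y, were found in 22 of the 25 genes (88.0%). The same letters were found in 37.5% of 27025 genes of the table and in 40.6% of the 8255 measured genes matched by symbol. The longer motif TCACNCCAC, read by SREBP factors, was found in 1 of the 25 genes (4%), Hmgcs1, against 1.22% of all genes of the table. A gene with several starts counted as holding a motif if any of its windows did. The 2 motifs share no overlapping match in the sequences printed, and a match describes letters and not a bound site. Only these exact letters in 250 bases were searched, so a gene without a match is not shown to lack an SREBP site.

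The promoters below were chosen for the following reasons. Mvd had the lowest ratio, Mvk acts earlier in the same route, and Lss and Nsdhl are sterol enzymes with lower levels. The INSIG genes are a pair that differed in opposite directions, and Hmgcs1 is the only gene with the SREBP motif. Each runs 5′ to 3′ on the gene's strand and ends before the first annotated transcribed base. Capitals mark CCAAT or its reverse complement ATTGG and, in Hmgcs1, also TCACNCCAC. Mvd lies at chr8:122443423-122443572 (minus strand), Mvk at chr5:114444119-114444268 (plus), Lss at chr10:76531438-76531587 (plus) and Nsdhl at chrX:72918371-72918520 (plus). Insig1 lies at chr5:28071162-28071362 (plus), the Insig2 start shown at chr1:121332590-121332739 (minus) and Hmgcs1 at chr13:119690201-119690350 (plus).
Mvd: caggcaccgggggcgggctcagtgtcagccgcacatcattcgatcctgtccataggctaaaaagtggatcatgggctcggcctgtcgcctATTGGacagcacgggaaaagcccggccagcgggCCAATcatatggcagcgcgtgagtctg
Mvk: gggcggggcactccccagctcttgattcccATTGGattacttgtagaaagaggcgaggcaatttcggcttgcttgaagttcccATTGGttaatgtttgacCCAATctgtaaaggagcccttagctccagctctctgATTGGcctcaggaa
Lss: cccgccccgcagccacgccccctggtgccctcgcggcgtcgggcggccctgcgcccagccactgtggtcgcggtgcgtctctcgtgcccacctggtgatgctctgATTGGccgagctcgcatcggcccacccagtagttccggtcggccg
Nsdhl: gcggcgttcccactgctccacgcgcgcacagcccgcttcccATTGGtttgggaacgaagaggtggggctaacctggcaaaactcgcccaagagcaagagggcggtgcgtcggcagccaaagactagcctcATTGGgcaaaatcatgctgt
Insig1: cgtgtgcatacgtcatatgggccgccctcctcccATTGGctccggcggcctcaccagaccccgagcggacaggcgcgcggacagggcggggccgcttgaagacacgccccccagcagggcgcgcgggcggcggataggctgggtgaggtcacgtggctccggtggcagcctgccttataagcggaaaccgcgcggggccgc
Insig2: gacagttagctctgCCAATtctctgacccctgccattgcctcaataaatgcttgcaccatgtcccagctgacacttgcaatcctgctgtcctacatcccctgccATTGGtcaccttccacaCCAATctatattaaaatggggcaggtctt
Hmgcs1: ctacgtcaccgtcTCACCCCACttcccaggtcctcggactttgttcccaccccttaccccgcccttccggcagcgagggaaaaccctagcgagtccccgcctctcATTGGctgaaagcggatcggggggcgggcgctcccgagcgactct
In Mvd the CCAAT letters began 60 and 27 bases before the start, on opposite strands. Mvk held 5 matches within 173 bases of the start, of which 4 fall in the stretch printed, and Insig1 held 1, 216 bases before its start. All distances are counted from the RefSeq start. The stretches printed for Insig1 and Lss end 49 and 17 bases short of it, because an earlier transcribed base is annotated there. In Hmgcs1 the SREBP motif began 137 bases before the start.

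In the library labelled Lrg1 knockout most cholesterol genes were lower. Of the exceptions, Insig2, Hsd17b7 and Abcg5 had intervals wholly above a ratio of 1, while those of Ggps1, Ebp and Lbr included 1 with TMM. Of the 29 measured genes, 23 had a log2 ratio (labelled knockout to wild type, after adding 0.5 reads) below 0, against 51.7% of all measured genes. Under scaling by total count the count was 19 of 29, against 40.3% of all genes. The median log2 ratio of the 29 was -0.28, against -0.01 over all measured genes. The summed level of all 31 genes was nevertheless higher, 2006 CPM in wild type and 2195 CPM in the library labelled knockout (ratio 1.09). Of these sums Insig2 alone held 601 and 927 CPM. Only Mvd and Insig1 were at least 2-fold lower, against 2.50% of all measured genes, and 0 were 2-fold higher, against 1.70%. At 1.5-fold, 8 of 29 were lower, against 6.91% of all measured genes, and 1 was higher, against 5.85%. The 8 were Mvd, Fdps, Sqle, Lss, Sc4mol, Nsdhl, Stard4 and Insig1, and the 1 was Insig2. The interval of the ratio lay wholly below 1 for 18 genes, against 26.6% of all measured genes, and wholly above 1 for 3, against 22.0%. With libraries scaled by total count these numbers were 15 (19.4% of all measured genes) and 6 (31.6%): Acat2, Sc5d and Abcg8 no longer lay wholly below 1, and Ggps1, Ebp and Lbr lay wholly above it. The median of the hepatocyte markers, -0.34, lay as low as that of the cholesterol genes, with single markers from -0.54 (Cps1) to 0.66 (Tat). A relation between the markers and the cholesterol genes was not tested.

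**Figure D1:**
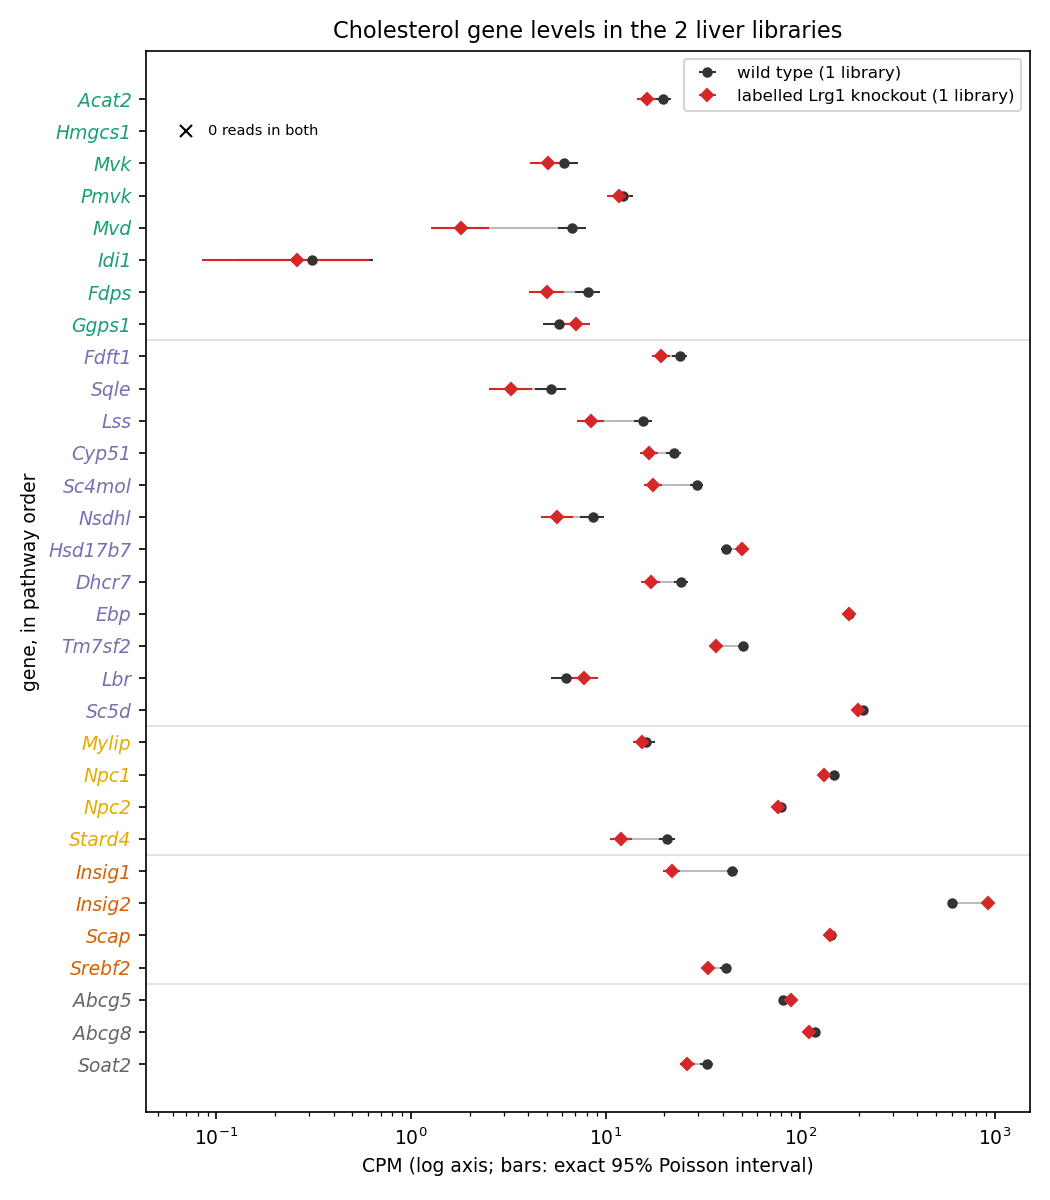
Level of each cholesterol gene in CPM (log axis) in the wild-type library (dark circles) and the library labelled Lrg1 knockout (red diamonds), 1 library each, with exact 95% Poisson intervals. Insig2 stands highest, at 601 and 927 CPM, Idi1 lowest at 0.309 and 0.259 CPM, and Hmgcs1 is marked by a cross because it had 0 reads in both.

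The mevalonate enzymes differed unevenly, with 1 gene far from the others. Acat2, which joins acetyl-CoA units in the cytosol, had 447 wild-type reads and 314 in the other library, or 19.7 and 16.3 CPM. Mvk, which phosphorylates mevalonate, had 138 and 97 reads, or 6.09 and 5.03 CPM. Both genes had a ratio of about the same size, 0.825 for Acat2 (0.712 to 0.955) and 0.826 for Mvk (0.630 to 1.08). The interval of Acat2 stayed below 1 with TMM but not with total-count scaling, and that of Mvk included 1 with TMM. Acat2 is uncertain, because only 59.3% of its windows of 50 transcript bases were found in no other gene, the others being shared mainly with Acat3 and Tcp1. Pmvk, which adds the next phosphate, had 279 and 225 reads, a ratio of 0.947 (0.791 to 1.13) that included no difference.

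Mvd, the decarboxylase that turns mevalonate diphosphate into isopentenyl diphosphate, showed the widest gap of all the members. It had 153 reads (6.75 CPM, 5.73 to 7.91) in wild type and 35 reads (1.82 CPM, 1.26 to 2.52) in the library labelled knockout. The intervals did not overlap, and the level was 3.72-fold higher in wild type (2.56 to 5.54). Its log2 ratio of -1.88 lay at percentile 0.62 of all measured genes, and all 1707 of its transcript windows of 50 bases were found in no other gene.

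Past the decarboxylase the isoprenoid genes went both ways. Fdps, which makes farnesyl diphosphate, had 184 and 96 reads, a ratio of 0.613 (0.474 to 0.789). Ggps1, which leads isoprenoids away from sterols into geranylgeranyl diphosphate, had 130 and 136 reads, a ratio of 1.23 (0.959 to 1.58). Fdps was thus lower, while the interval of Ggps1 included 1 with TMM and lay above it with total-count scaling. Fdps is uncertain, because only 35.9% of its windows were found in no other gene and an overlapping annotated gene, Gm43738, covers 63.3% of its exon length on the same strand.

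Hmgcs1 and Idi1 could not be compared. Hmgcs1, the synthase just before the reductase step, had 0 reads in both libraries, which allows up to 0.132 CPM in wild type and 0.156 CPM in the other library (3 counts, counting error only). Idi1, the isomerase of isopentenyl diphosphate, had 7 and 5 reads, a ratio of 0.839 with an interval from 0.210 to 3.07. In the GENCODE M21 transcripts, 87.4% of Hmgcs1 windows and 71.4% of Idi1 windows were found in no other gene. The 0 of Hmgcs1 is given as listed and is not read as a lack of expression. The reason for it was not tested. The files were made on mm9, and the uniqueness of these genes in that genome is not analysed here.

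**Figure D2:**
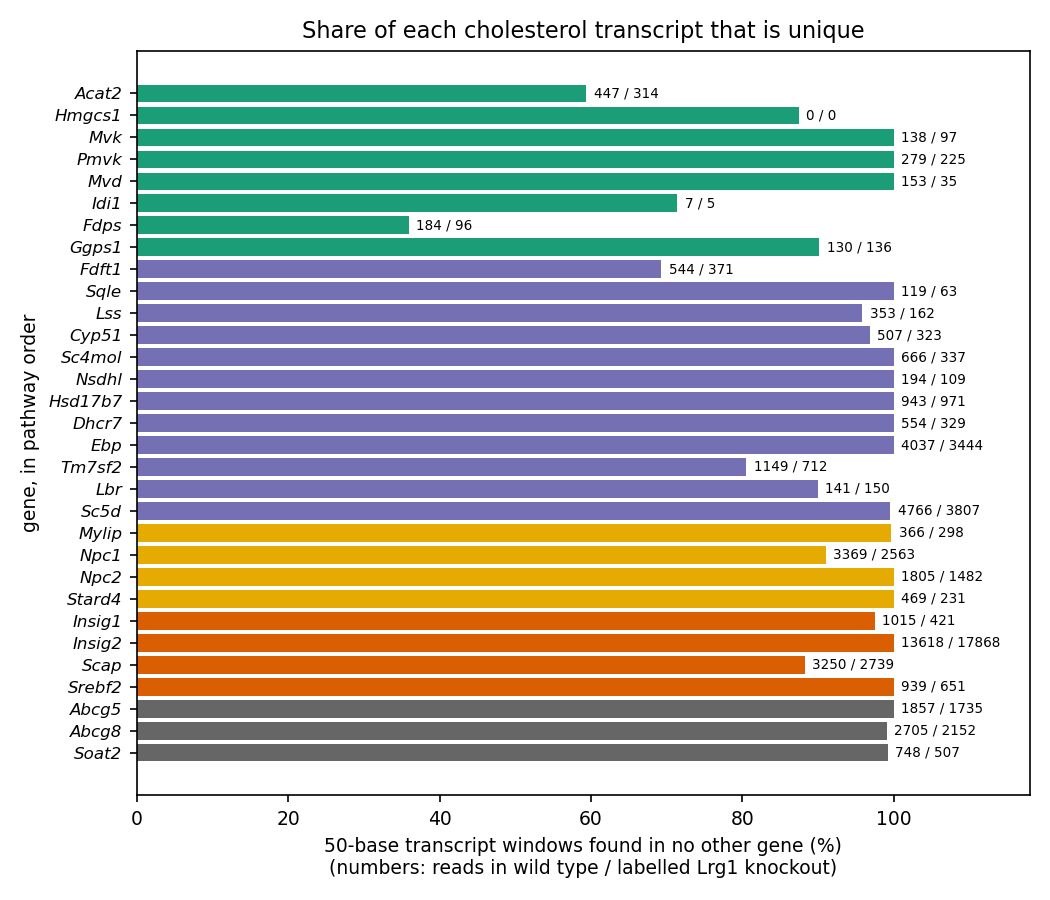
Share of 50-base windows of each cholesterol gene's protein-coding transcripts that occur in no transcript of another gene (GENCODE M21, exact match on both strands), with reads in wild type / labelled Lrg1 knockout beside each bar. Fdps (35.9%) and Acat2 (59.3%) are the least unique. Hmgcs1, with 0 reads in both libraries, stands at 87.4%.

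From squalene to cholesterol, 9 of 12 genes had a log2 ratio below 0, against 51.7% of all measured genes, and the same 9 had intervals wholly below a ratio of 1, against 26.6%. With total-count scaling 8 did, without Sc5d, against 19.4%. The median log2 ratio of the step was -0.44, the lowest of the 5 steps, and 0 of 12 were 2-fold lower or higher, against 2.50% and 1.70% of all measured genes. Fdft1, the squalene synthase, had 544 and 371 reads, a ratio of 0.801 (0.700 to 0.916). Sqle, the squalene epoxidase and a control point of the route, had 119 and 63 reads, a ratio of 0.622 (0.451 to 0.851). Lss, which closes the ring to lanosterol, had 353 and 162 reads, or 15.6 and 8.40 CPM. Lss had the lowest ratio of the step, 0.539 (0.445 to 0.651), and its interval reached past 2-fold. Fdft1 is uncertain, because only 69.3% of its windows were found in no other gene, the others being shared mainly with Ctsb and Gm6781. Its exons face Ctsb on the opposite strand over 20.9% of exon length. The sources used here do not give the strand setting of the counting.

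The enzymes that strip methyl groups from lanosterol were lower except Hsd17b7. Cyp51, the lanosterol demethylase, had 507 and 323 reads, a ratio of 0.748 (0.649 to 0.862). Sc4mol, now named Msmo1, a methyl sterol oxidase, had 666 and 337 reads, a ratio of 0.594 (0.520 to 0.679). Nsdhl, the dehydrogenase of the same complex, had 194 and 109 reads, a ratio of 0.660 (0.517 to 0.839). Hsd17b7, the ketone reductase that completes this demethylation, went the other way. It had 943 and 971 reads, or 41.6 and 50.4 CPM, and a ratio of 1.21 (1.10 to 1.32).

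Tm7sf2 and Lbr, which encode a pair of enzymes for the same sterol reductase reaction, stood on opposite sides of equality. Tm7sf2 had 1149 and 712 reads, a ratio of 0.728 (0.662 to 0.800). Lbr, the lamin B receptor of the inner nuclear membrane, had 141 and 150 reads, a ratio of 1.25 (0.986 to 1.58) whose interval just included no difference. Per kilobase of exon, Tm7sf2 was the more abundant in both libraries, at 22.9 and 16.7 CPM per kb, against 1.57 and 1.96 CPM per kb for Lbr. In GENCODE M21, Tm7sf2 shares 24.1% of its exon length with Vps51 on the same strand. Whether reads there were assigned to either gene is not known, because the sources used here do not give the annotation of the counting.

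The last enzymes differed least, apart from Dhcr7. Ebp, the sterol isomerase, had 4037 and 3444 reads, or 178 and 179 CPM, a ratio of 1.002 (0.957 to 1.05). Sc5d, the sterol desaturase, had 4766 and 3807 reads, or 210 and 197 CPM, a ratio of 0.938 (0.899 to 0.979). Dhcr7, the reductase that finishes cholesterol, had 554 and 329 reads, a ratio of 0.698 (0.607 to 0.801). Ebp and Sc5d were also the most abundant synthesis genes per kilobase of exon in wild type, at 102 and 43.2 CPM per kb, while Dhcr7 stood at 7.02 CPM per kb. These 2 genes held 57.5% of wild-type reads of the synthesis genes. The summed level of all 20 synthesis genes was 676 CPM in wild type and 606 CPM in the library labelled knockout (ratio 0.897), while the median log2 ratio of the 18 measured ones was -0.37.

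**Figure D3:**
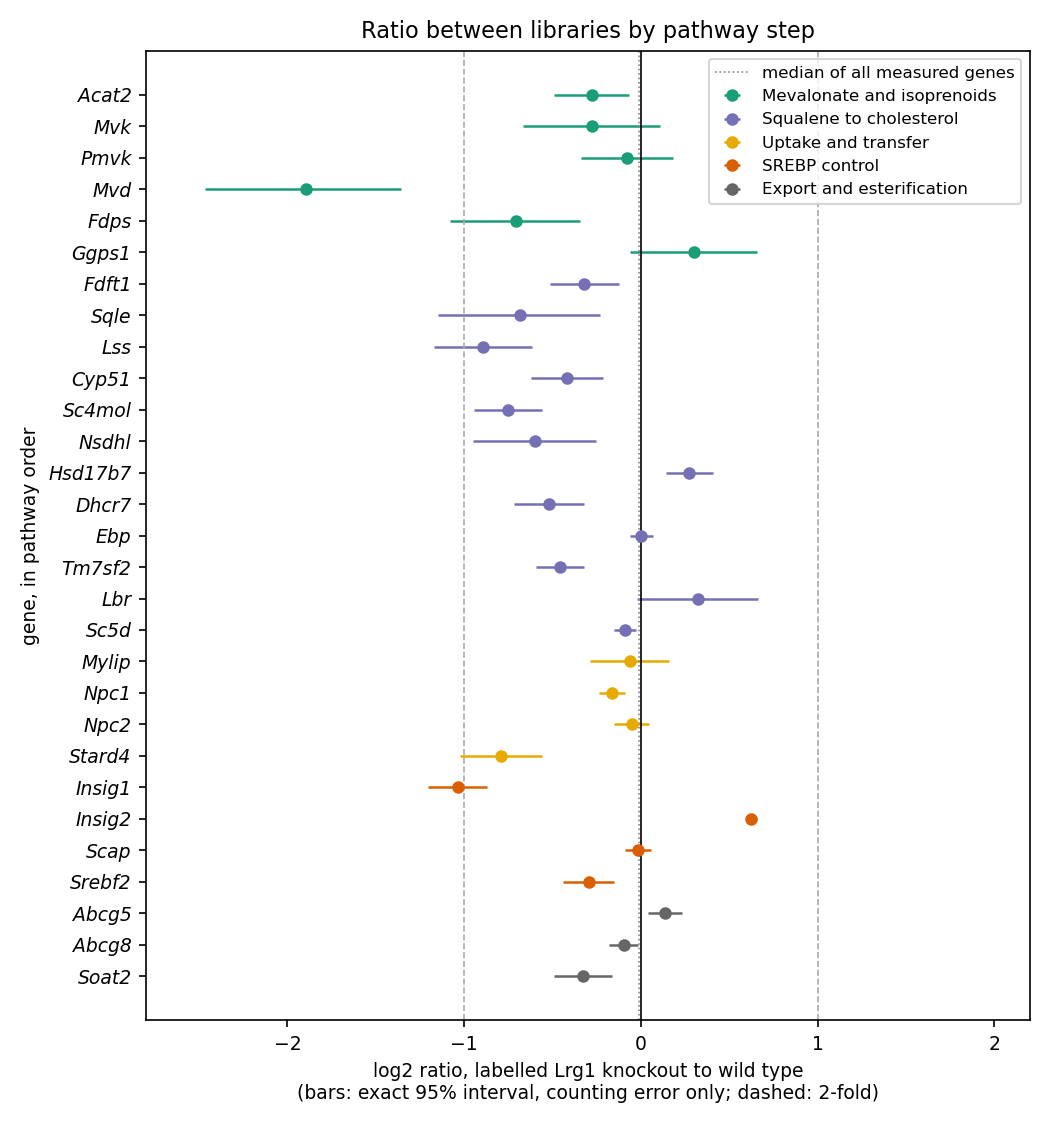
Log2 ratio of the library labelled Lrg1 knockout to wild type for the 29 measured cholesterol genes in pathway order, with exact 95% intervals for counting error, coloured by step; dashed lines mark 2-fold and the dotted line the median of all measured genes (-0.01). Mvd (-1.88) and Insig1 (-1.04) lie past the lower dashed line and Insig2 (0.62) is the highest.

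Uptake and transfer genes had ratios close to 1 apart from Stard4. Mylip, a ubiquitin ligase that lowers lipoprotein receptor protein, had 366 and 298 reads, a ratio of 0.956 (0.818 to 1.12). Npc1, the membrane protein that moves cholesterol out of lysosomes, had 3369 and 2563 reads, a ratio of 0.894 (0.849 to 0.941). Npc2, its soluble partner in the lysosome lumen, had 1805 and 1482 reads, a ratio of 0.965 (0.900 to 1.03). Of these 3, only Npc1 had an interval below 1, against 26.6% of all measured genes. Stard4, a cytosolic sterol carrier that returns cholesterol to the endoplasmic reticulum, had 469 reads (20.7 CPM) in wild type and 231 reads (12.0 CPM) in the other library, a ratio of 0.579 (0.492 to 0.679). All 4 log2 ratios were below 0, against 51.7% of all measured genes. Under scaling by total count those of Mylip and Npc2 were above 0, and 40.3% of all measured genes were below 0.

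The control genes of SREBP held a pair that differed in opposite directions and the member with the highest level per kilobase of exon. Insig1, a sterol sensor partner that is itself a target of SREBP-2, had 1015 reads (44.8 CPM, 42.1 to 47.7) in wild type and 421 reads (21.8 CPM, 19.8 to 24.0) in the library labelled knockout. The intervals did not overlap, and the level was 2.05-fold higher in wild type (1.83 to 2.30). The interval included values under 2-fold, and the log2 ratio, -1.04, was -0.95 with libraries scaled by total count and -0.98 when the 20 most abundant genes were left out of that total.

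Insig2, which encodes the second INSIG protein and is known in liver for a transcript that insulin lowers, differed in the opposite direction. It had 13618 reads (601 CPM, 591 to 611) in wild type and 17868 reads (927 CPM, 913 to 940) in the library labelled knockout, a ratio of 1.54 (1.51 to 1.58). Per kilobase of exon the Insig2 level was 12.0 times that of Insig1 in wild type and 38.0 times in the library labelled knockout. Both transcripts together summed to 646 and 948 CPM. The counts per symbol do not separate the Insig2 start sites, so the start used could not be told.

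Of the other control genes, Srebf2 was lower and Scap was close to equal. Scap, the escort of the SREBP proteins, had 3250 and 2739 reads, a ratio of 0.990 (0.941 to 1.04). Srebf2, which encodes SREBP-2, had 939 and 651 reads, or 41.5 and 33.8 CPM, a ratio of 0.814 (0.736 to 0.901). Its log2 ratio of -0.30 lay at percentile 18.8 of all measured genes, and 13 measured cholesterol genes had a lower one.

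Of the export and esterification genes, Soat2 was lower, and the transporter genes Abcg5 and Abcg8 were closer to equality. Abcg5 and Abcg8 encode the subunits of the transporter that secretes sterols into bile, and their RefSeq starts lie 110 bases apart on opposite strands. Abcg5 had 1857 and 1735 reads, a ratio of 1.10 (1.03 to 1.17). Abcg8 had 2705 and 2152 reads, a ratio of 0.935 (0.883 to 0.989) whose interval included 1 under total-count scaling. The subunits thus stood on opposite sides of 1, and per kilobase of exon Abcg5 and Abcg8 had similar levels, 33.9 and 31.9 CPM per kb in wild type and 37.2 and 29.8 CPM per kb in the library labelled knockout. Soat2, which makes the cholesterol esters that hepatocytes secrete, had 748 and 507 reads, a ratio of 0.796 (0.710 to 0.892).

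In a companion list of 33 other genes of sterol and isoprenoid handling, 0 of 31 measured genes were 2-fold lower or higher, against 2.50% and 1.70% of all measured genes, which is near that background. At 1.5-fold 0 were lower or higher, against 6.91% and 5.85%. Their median log2 ratio was -0.13, with 23 of 31 below 0, against 51.7%. Npc1l1, the intestinal sterol absorber, had 0 reads in both libraries, and Gramd1b was also below the minimum. The 4 measured genes farthest from 0 were Dhdds, a subunit of the dolichol-forming prenyltransferase (767 and 465 reads, -0.49), Osbp, an oxysterol-binding protein (2010 and 1240 reads, -0.46), Erlin1, a sterol-sensing protein of the endoplasmic reticulum (1598 and 1009 reads, -0.43) and Pdss1, which builds the ubiquinone tail (38 and 25 reads, -0.37). Of these 4, only Pdss1 had an interval that included a ratio of 1 (0.773, 0.447 to 1.31). By group, 7 of 8 control genes, 6 of 8 isoprenoid genes, 3 of 6 genes of esters and flux and 7 of 9 transfer and uptake genes were below 0. Lipa, the lysosomal acid lipase, had the highest value of the list (6026 and 6459 reads, 0.33). No test of a difference between the lists was possible.

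**Figure D4:**
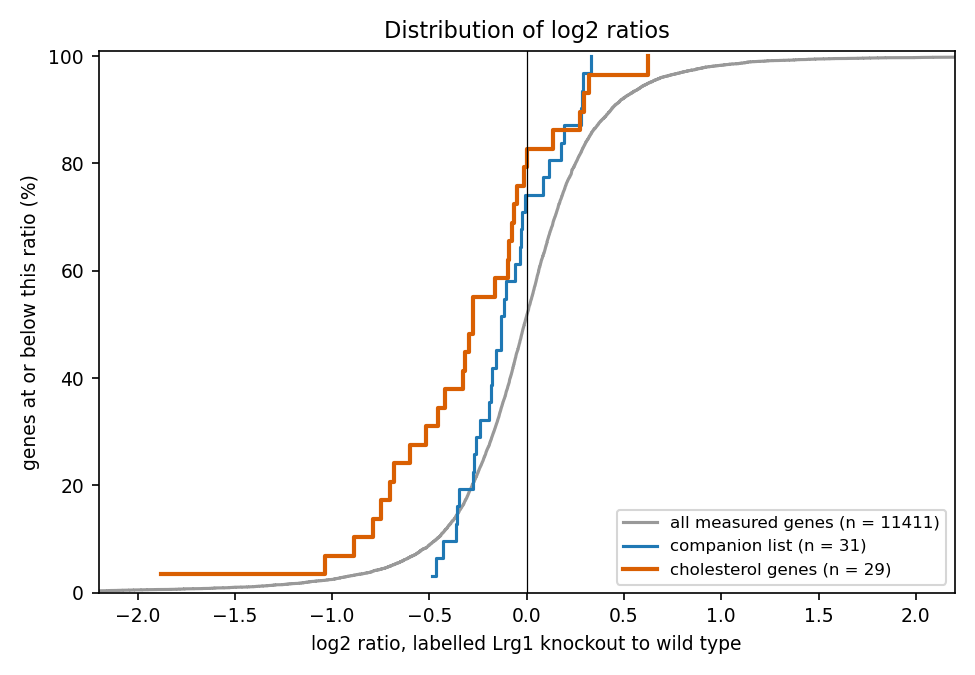
Cumulative share (%) of genes at or below each log2 ratio (labelled Lrg1 knockout to wild type) for all 11411 measured genes (grey), the 31 measured companion genes (blue) and the 29 measured cholesterol genes (orange). The medians are -0.01, -0.13 and -0.28.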

How the data were processed

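RNA was extracted from frozen liver with Trizol. Per the labels' protocols, messenger RNA was enriched with oligo(dT) beads from about 500 ng of total RNA, and stranded libraries were read from 1 end over 50 bases. The submitters' processing notes name bcl2fastq, TopHat2, HTSeq and genome build mm9; the sources used here give no versions, strand setting or annotation. What the authors deposited are raw counts of reads for each symbol, without normalization. Lines that name no gene did not enter library sizes. Of uniquely aligned reads, 14.0% (wild type) and 14.4% (labelled knockout) fell outside genes, while 0.231% and 0.234% fell in several genes. Only unique alignments were counted.

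Counts were scaled by TMM in edgeR 4.0.16 (factors 0.972 and 1.03; R 4.3.3). Log2 ratios used a prior count of 0.5, linear ratios none. Genes with at least 50 summed reads counted as measured. Ratios carry Clopper-Pearson intervals given the summed counts, and levels Poisson intervals, at 95%. Levels per kilobase used merged exons of protein-coding transcripts in GENCODE M21 (GRCm38). No coordinates were moved between builds. Promoters came from RefSeq. Every listed member is named; of the companion list, genes 2-fold apart and the 4 farthest from 0, plus Lipa, Npc1l1 and Gramd1b, which were chosen after their values were seen. The members, lists and thresholds were chosen with earlier results of these data known. Other genes of the pathway were not analysed here. Ratios and intervals were tested on simulated data. Alternatives covered scaling (with DESeq2 1.42.0 size factors among them), thinning, prior, filter, threshold and summary. Other steps ran in Python 3.11.15 (scipy 1.17.1, numpy 2.4.6, matplotlib 3.10.9, pandas 2.3.3).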

Additional observations from a re-analysis of the deposited data

Results flagged for a closer look

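Alignments that were not unique lie outside the counts per gene, with a share of 50.3% of counted lines for wild type and 58.0% for the library labelled Lrg1 knockout. They are listed only as a signal in data that lie outside the comparison. Whether reads of Hmgcs1, Idi1, Fdps or Acat2 are among them was not tested.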

How the results depend on the processing

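The median log2 ratio of the 29 measured cholesterol genes stayed below 0 under every alternative run, from -0.19 (total count) to -0.31 (mean in place of median). The number at least 2-fold lower, 2 (Mvd and Insig1), was 1 under scaling by total count, against 251 of all 11411 measured genes. It was also 1 when that total left out the 20 most abundant genes, against 259 of 11411. At 1.5-fold it was 8, against 6.91% of all measured genes. It was 1 from 200 summed reads (27 genes measured) and 1 at a threshold of 3-fold, for which no share of all genes was computed. The number higher, 0, was 1 at 1.5-fold, against 5.85% of all measured genes. Both counts were 2 and 0 with DESeq2 size factors, against 283 and 195 of 11411 measured genes. They were also 2 and 0 with thinning, a prior of 2 and minimum sums of 1 and 10, without a share of all genes computed. An alternative chosen after seeing the data left out members with under 90% of windows in no other gene. The measured genes left out were Acat2, Fdps, Fdft1, Tm7sf2, Lbr and Scap. The remaining 23 genes had a median of -0.28 and the counts at 2 and 0. Of 145 single-gene values under other scalings, thinning or prior, 7 lay outside the gene's counting interval, and 5 genes changed sign in at least 1 of them (Pmvk, Mylip, Npc2, Scap and Ebp), 0 of them 2-fold apart. Scaling by total count moved the median gene by 0.083 (log2). No paired analysis was possible because each group has 1 library. Depth limits the precision for Mvd, with 35 reads in 1 library. Why Idi1 and Hmgcs1 had so few reads was not tested.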
